A study of Mus musculus with 6 samples.

Results

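The Schlafen genes form a family, enlarged in rodents, that lies in a cluster on mouse chromosome 11 and is known to be induced by type I interferons. The set described here was chosen by gene symbol: Slfn1, Slfn2, Slfn4, Slfn5, Slfn8 and Slfn9, 6 of the 28368 genes in the deposited count table. All 6 passed the filter on low counts that left 18049 genes for testing. The libraries, 3 in each of 2 groups, hold RNA of whole mouse tumours. In the treated group the mice were under MS-DF-MS therapy for 12 h, and in the control group they had no treatment. The series title speaks of implanted depots with a pair of drugs, a STING agonist and an apoptosis inducer, and STING is the adaptor through which cytosolic DNA triggers interferon production. The labels give no strain, sex, age, tumour type or drug name. No group carried an empty depot, so effects of the implant and of the drugs cannot be told apart. The labels do not say that each library is a separate mouse, so the p-values reflect library-to-library spread that may be technical.

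Schlafen proteins take their name from the German word for sleep, because the founding member, Slfn1, slowed the growth of thymocytes. They share a core domain near the amino end, which in rat SLFN13 and human SLFN11 cleaves transfer RNA, and the long forms carry an added helicase-like domain. The long forms here are Slfn5, whose human counterpart acts in the nucleus on interferon-driven transcription, and the near copies Slfn8 and Slfn9. Slfn4 is of middle length and is known from macrophages and suppressive myeloid cells of the inflamed mouse stomach. The short forms are Slfn1 and Slfn2, and Slfn2 keeps T cells quiescent and shields transfer RNA from cleavage in them.

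Libraries held 64505780 to 66634551 counts in the treated group and 57017043 to 64172654 counts in the control group. Levels are given as depth-scaled counts (CPM). The labels name the tissue only as tumour, and 7 melanocyte markers summed to 21636 to 23502 CPM in treated and 21010 to 23200 CPM in control libraries. Pan-leukocyte markers (5 genes, none at 0 in any library) summed to 67.3, 36.4 and 17.3 CPM in treated 1, 2 and 3, against 48.0 to 51.1 CPM in the controls, so treated 3 had the lowest sum of the 6 libraries. In whole tumours, fewer cells of a type and less RNA per cell cannot be told apart.

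Slfn4, Slfn5, Slfn8 and Slfn9 rose in treated tumours, by 1.99-fold (Slfn9) to 16.4-fold (Slfn4), while Slfn1 and Slfn2 did not pass the threshold. The count of 4 of 6 members stands beside 1.36% of all tested genes higher and 0.249% lower at an adjusted p under 0.05 (edgeR's quasi-likelihood test, Benjamini-Hochberg over all tested genes). No member was lower. In the 4 genes that rose, each treated library lay above each control library, as did 12.0% of all tested genes. For Slfn1 and Slfn2, treated 1 and 2 lay above all controls and treated 3 among or below them.

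**Figure D1:**
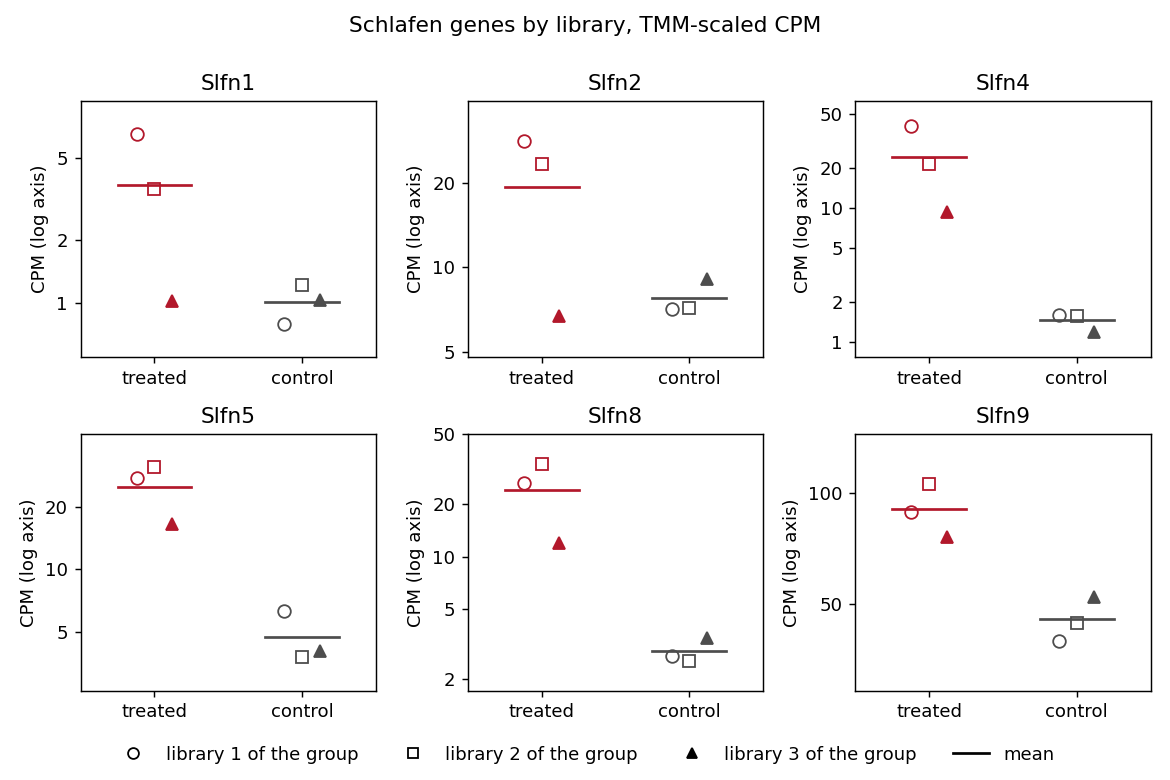
CPM on a log axis for each of the 6 Schlafen genes, with the 3 treated libraries left of the 3 control libraries; each symbol is 1 library and the line is the group mean. Treated 3 (filled triangle) is the lowest treated library in all 6 panels and lies among or below the controls for Slfn1 and Slfn2.

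The 6 genes lie within 335 kb of chromosome 11, and the spans below are of whole genes in the coordinates of the table. These match GENCODE M21 (GRCm38) at both ends for 5 of the 6 members, and Slfn5 ends earlier in the table than in that annotation. Slfn5 (ENSMUSG00000054404) runs from 82951349 to 82961906, Slfn9 (ENSMUSG00000069793) from 82978390 to 82991830 and Slfn8 (ENSMUSG00000035208) from 83002158 to 83020810. Beyond the pseudogene Slfn10-ps come Slfn2 (ENSMUSG00000072620) from 83065112 to 83070678, Slfn1 (ENSMUSG00000078763) from 83116849 to 83122670 and Slfn4 (ENSMUSG00000000204) from 83175186 to 83190216. Slfn8 and Slfn9 lie on the minus strand and the other 4 on the plus strand.

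Promoters of the members are printed because these genes are known interferon targets and 4 of them rose. RefSeq windows (GRCm38.p6) from 250 bases before to 50 bases after the start site were at hand for all 6 genes. The core of the interferon-stimulated response element was searched as GAAA, any 2 bases and GAAA, or as TTTC, any 2 bases and TTTC for the other strand, and 3.44% of 32851 promoter windows hold it. It was found in the windows of the 3 long forms, Slfn5 (chr11:82951852-82952151, plus strand), Slfn8 (chr11:83020761-83021060, minus strand, shown for one of its 2 listed start sites, both of whose windows hold the match) and Slfn9 (chr11:82991781-82992080, minus strand). The match is in capitals, and each window is written 5′ to 3′ along its gene.
Slfn5: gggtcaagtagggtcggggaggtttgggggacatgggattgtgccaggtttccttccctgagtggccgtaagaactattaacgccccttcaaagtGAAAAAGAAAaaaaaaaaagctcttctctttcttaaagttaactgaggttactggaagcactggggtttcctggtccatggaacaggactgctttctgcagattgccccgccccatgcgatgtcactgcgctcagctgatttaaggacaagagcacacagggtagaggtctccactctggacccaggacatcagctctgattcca
Slfn8: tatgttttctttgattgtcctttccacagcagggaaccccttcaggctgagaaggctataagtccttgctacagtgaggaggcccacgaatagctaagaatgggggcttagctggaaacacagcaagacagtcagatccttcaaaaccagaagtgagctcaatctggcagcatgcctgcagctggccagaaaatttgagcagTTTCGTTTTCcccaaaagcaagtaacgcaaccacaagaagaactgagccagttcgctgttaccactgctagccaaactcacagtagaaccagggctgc
Slfn9: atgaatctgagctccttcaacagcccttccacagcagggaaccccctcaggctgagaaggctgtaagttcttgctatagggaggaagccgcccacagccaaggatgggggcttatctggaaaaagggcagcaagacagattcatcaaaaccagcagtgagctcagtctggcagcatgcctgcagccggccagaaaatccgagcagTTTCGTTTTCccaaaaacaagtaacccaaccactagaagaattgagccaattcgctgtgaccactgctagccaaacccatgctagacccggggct

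The match begins 155 bases before the start site in Slfn5, 48 in the printed window of Slfn8 (136 before its other start site) and 45 in Slfn9. The whole Slfn5 window, from 82951852 to 82952151, lies inside the gene span of the table, which begins at 82951349. The Slfn5 match is thus upstream of the listed RefSeq start site but not of the whole gene. The letters of the match are the same in Slfn8 and Slfn9, whose windows were 83.4% identical over 295 aligned bases. The windows of Slfn1, Slfn2 and Slfn4 do not hold these letters, which says nothing of a looser match or of one elsewhere. The gamma-activated site, searched as TTC, any 3 bases and GAA, which reads the same on both strands, is held by 8.30% of promoter windows and by none of the members' windows.

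The longest run of letters common to the windows of Slfn1, Slfn2 and Slfn4 was ACTTCCTGGAG, which 24 of the 32851 windows hold on either strand. It was picked for being shared, so that number is a description only. The window of Slfn3, which is outside the set, holds its stretch ACTTCCTGG. The full run begins 74 bases before the start site in Slfn1 (chr11:83116570-83116869), 55 in Slfn2 (chr11:83064862-83065161) and 73 in Slfn4 (chr11:83174936-83175235). These matches are all on the plus strand and are in capitals here.
Slfn1: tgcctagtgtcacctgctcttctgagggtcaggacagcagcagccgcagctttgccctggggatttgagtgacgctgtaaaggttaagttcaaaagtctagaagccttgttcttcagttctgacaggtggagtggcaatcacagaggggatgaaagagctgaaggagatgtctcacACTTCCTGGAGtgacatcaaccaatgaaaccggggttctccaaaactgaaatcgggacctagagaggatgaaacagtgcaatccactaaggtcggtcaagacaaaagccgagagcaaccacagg
Slfn2: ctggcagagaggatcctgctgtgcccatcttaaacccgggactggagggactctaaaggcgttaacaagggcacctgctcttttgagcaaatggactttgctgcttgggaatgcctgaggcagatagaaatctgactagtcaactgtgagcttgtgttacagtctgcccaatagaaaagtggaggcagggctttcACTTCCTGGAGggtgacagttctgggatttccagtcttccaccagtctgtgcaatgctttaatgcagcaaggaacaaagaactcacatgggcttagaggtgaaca
Slfn4: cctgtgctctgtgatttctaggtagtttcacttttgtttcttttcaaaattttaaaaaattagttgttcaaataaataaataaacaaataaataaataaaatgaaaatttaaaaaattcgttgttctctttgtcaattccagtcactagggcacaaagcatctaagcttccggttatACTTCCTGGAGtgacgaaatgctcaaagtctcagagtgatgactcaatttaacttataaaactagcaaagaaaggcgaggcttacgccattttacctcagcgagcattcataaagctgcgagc

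Among the long forms, Slfn5 was at 27.3, 30.9 and 16.6 CPM in treated 1, 2 and 3, against 6.29, 3.76 and 4.05 CPM in control 1, 2 and 3. The lowest treated library stood well clear of the highest control. The log2 fold change was 2.41 ± 0.28 (SE, n = 3 each, edgeR adjusted p = 0.00608), a 5.31-fold rise. Of 12 alternative settings 11 kept this call, and it was lost without control 3 (edgeR adjusted p = 0.06).

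Slfn8, a long form close in sequence to Slfn9, was at 26.3, 34.0 and 12.0 CPM in treated 1, 2 and 3, against 2.69, 2.53 and 3.44 CPM in control 1, 2 and 3. Treated 2 was the highest library and the controls lay close together. The gene rose 8.35-fold, or on the log2 scale by 3.06 ± 0.37 (edgeR adjusted p = 0.00649). This call was lost without control 1 (edgeR adjusted p = 0.0515), without control 2 (0.0628) and by limma-voom (0.0633).

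Slfn9, the member with the most counts, was at 88.8, 106.2 and 76.2 CPM in treated 1, 2 and 3, against 39.7, 44.3 and 52.2 CPM in control 1, 2 and 3. Its rise was the smallest of the 4, and its treated libraries were the closest together of the 6 members, with a coefficient of variation of 16.6%, against 13.9% over the controls. The log2 fold change was 0.99 ± 0.14 (edgeR adjusted p = 0.016). Among the fits that left out 1 library, the call was lost without treated 2 (edgeR adjusted p = 0.0545), control 1 (0.0719) or control 2 (0.111).

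Slfn4, the middle-length form of myeloid cells, was at 41.0, 21.5 and 9.29 CPM in treated 1, 2 and 3, against 1.59, 1.57 and 1.19 CPM in control 1, 2 and 3. The groups were far apart although the highest treated library was 4.41 times the lowest. The log2 fold change was 4.04 ± 0.52 (edgeR adjusted p = 0.00944), which ranked 16 among all tested genes from the top. The call was lost without control 1 (edgeR adjusted p = 0.0615), control 2 (0.0795) or control 3 (0.0837), and by limma-voom (0.129).

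Slfn1, the founding short form, was at 6.55, 3.53 and 1.02 CPM in treated 1, 2 and 3, against 0.788, 1.21 and 1.03 CPM in control 1, 2 and 3. The groups overlapped, with treated 3 at 1.01-fold of the control mean. The log2 fold change was 1.87 ± 0.59 (edgeR adjusted p = 0.185).

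Slfn2, the quiescence factor of T cells, was at 28.1, 23.3 and 6.68 CPM in treated 1, 2 and 3, against 7.11, 7.17 and 9.07 CPM in control 1, 2 and 3. Treated 3 was below each control, at 0.859-fold of their mean. The log2 fold change was 1.31 ± 0.45 (edgeR adjusted p = 0.215).

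Without treated 3 both short forms passed the threshold, Slfn1 at a fitted log2 difference of 2.31 (edgeR adjusted p = 0.019) and Slfn2 with 1.72 (edgeR adjusted p = 0.00199). All 6 members were then called, beside 1.64% of the genes tested in that setting. DESeq2 on all 6 libraries called 5 members, beside 4.47% of the genes it tested, with Slfn1 at an adjusted p of 0.00732 and Slfn2 at 0.194. Treated 3 was the lowest treated library for both short forms, so its removal had to raise their log2 fold changes. Leaving out any other library called neither gene. Of 12 alternative settings, Slfn1 was called in 2 and Slfn2 in 1.

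**Figure D2:**
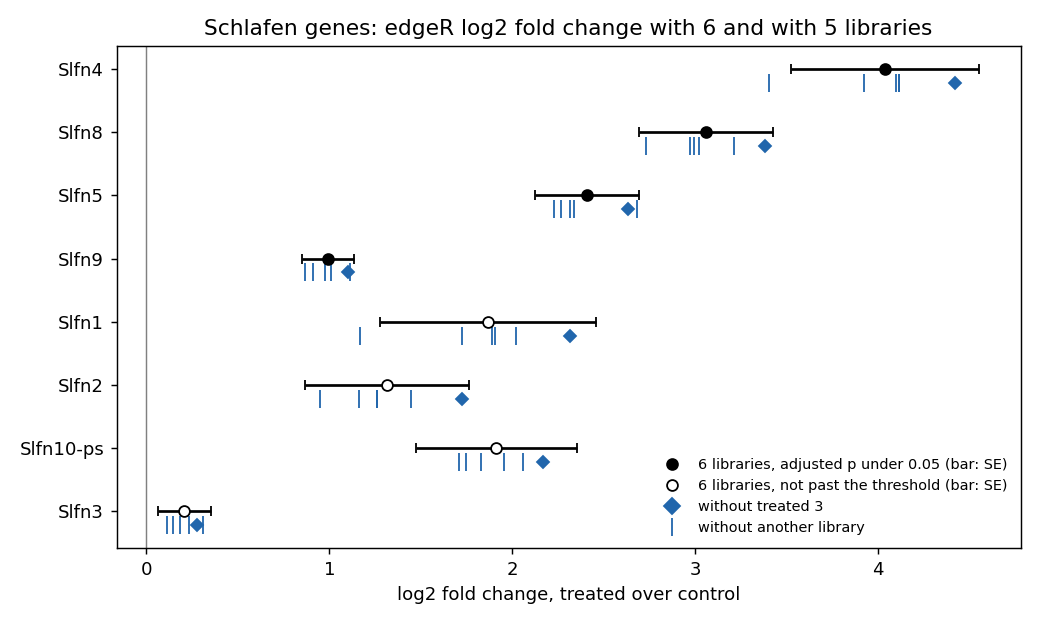
Log2 fold change of treated over control for the 6 Schlafen genes and for Slfn10-ps and Slfn3, from edgeR with 6 libraries (circle, bar = SE, filled where the adjusted p is under 0.05) and with 5 (blue marks, the diamond being the fit without treated 3). All values lie above 0, and for Slfn4, Slfn8, Slfn1, Slfn2 and Slfn10-ps the fit without treated 3 gives the highest.

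Treated 3 was the lowest treated library for every member, by unequal amounts. Relative to the control mean, treated 1, 2 and 3 stood at 5.82, 6.58 and 3.53 for Slfn5, at 9.11, 11.8 and 4.15 for Slfn8 and at 1.96, 2.34 and 1.68 for Slfn9. For Slfn4 they stood at 28.2, 14.8 and 6.40. Treated 2 was thus the highest library for the 3 long forms, and treated 1 for Slfn1, Slfn2 and Slfn4. The 35 interferon-stimulated comparators are a list without Schlafen genes. Their median log2 difference from the mean of the controls was 2.75 (treated 1), 2.92 (treated 2) and 2.15 (treated 3). The summed CPM of the list had the same order, at 5813, 6119 and 4308 in treated 1, 2 and 3, but single genes of the list differed. Some were highest in treated 1, such as Irf7 at 134.0, 89.7 and 67.9 CPM in treated 1, 2 and 3. Others were highest in treated 2, such as Ifit1 at 129.0, 221.3 and 116.0 CPM.

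Markers of other cells moved with the same libraries. Neutrophil markers (11 of 12 listed genes in the table) summed to 58.1, 18.5 and 5.75 CPM in treated 1, 2 and 3, against 3.54 to 5.93 CPM in the controls, and Cxcr2, Retnlg, Ly6g, Ltf, Ngp and Stfa2l1 were at 0 in at least 1 library. Monocyte and macrophage markers (12 genes, none at 0) summed to 274.8, 167.4 and 78.1 CPM in treated 1, 2 and 3, against 160.5 to 216.4 CPM in the controls. T cell markers (12 genes, Cd3e and Cd5 at 0 in at least 1 library) summed to 38.5, 35.2 and 26.9 CPM in treated 1, 2 and 3, against 38.4 to 52.6 CPM in the controls. Treated 1 was thus highest in both myeloid lists and in Slfn1, Slfn2 and Slfn4, and the part of these cells in those levels was not tested. The order was not particular to myeloid lists. Treated 1 was also the highest treated library in the T cell, pan-leukocyte, dendritic, NK, endothelial and skeletal muscle sums. Skeletal muscle markers summed to 93.3, 15.3 and 0.873 CPM in treated 1, 2 and 3. The B cell and melanocyte sums were highest in treated 3 among the treated libraries. In treated 3, which is 1 library, the neutrophil sum lay inside the control range and the monocyte sum below it, and Slfn4 was at 6.40-fold, Slfn8 at 4.15-fold and Slfn5 at 3.53-fold of the control mean. Red blood cell markers (5 genes, none at 0) followed the same order, at 1471, 486 and 262 CPM in treated 1, 2 and 3, against 98.0 to 249.6 CPM in the controls.

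Over all tested genes, 16.0% had an unadjusted edgeR p under 0.05 and DESeq2 called 6.37% in either direction, and the counts for lists are to be read beside these shares. Over 7 immune lists edgeR called 0 of 52 tested markers, with 11 at an unadjusted p under 0.05, 5 called by DESeq2 and 0 by limma-voom. Over the melanocyte, red blood cell and muscle lists it called 0 of 17, with 5 at an unadjusted p under 0.05 and 0 called by DESeq2 or limma-voom. Of 8 endothelial markers edgeR called 5 higher, beside 1.36% of all tested genes, with a median log2 fold change of 0.95 over the list.

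**Figure D3:**
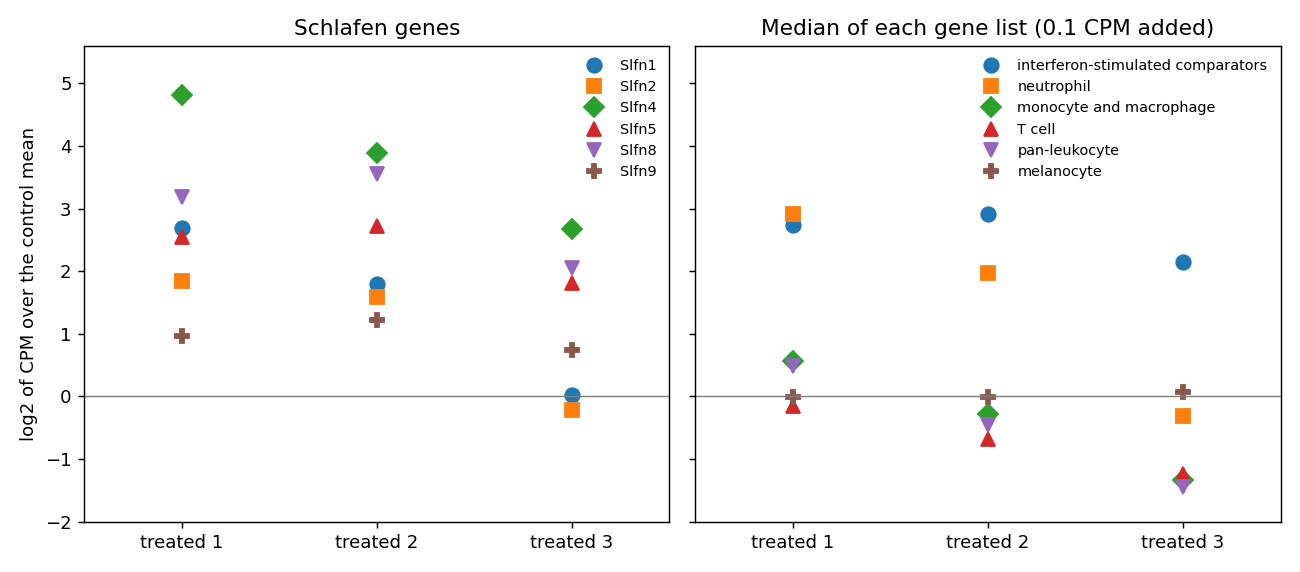
Log2 of CPM over the mean of the 3 control libraries in each treated library, for the 6 Schlafen genes (left) and as the median of 6 gene lists (right, with 0.1 CPM added to both sides of the ratio). In treated 3, Slfn1 is at and Slfn2 below the control level and the medians of the leukocyte lists are below it, while Slfn4, Slfn8, Slfn5 and the interferon-stimulated comparators are above.

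Levels of different genes can be compared per length, on the authors' FPKM scale. In treated tumours Slfn9 was at 13.4 ± 2.03 FPKM (SD, n = 3, as for the values that follow), Slfn2 at 10.2 ± 5.95, Slfn4 at 5.33 ± 3.60, Slfn8 at 5.17 ± 2.34, Slfn5 at 3.47 ± 1.01 and Slfn1 at 1.75 ± 1.32 FPKM. The ranges of neighbours in this order overlapped. In control tumours Slfn9 was at 6.75 ± 0.943 FPKM, Slfn2 at 4.14 ± 0.596, Slfn5 at 0.656 ± 0.194, Slfn8 at 0.624 ± 0.106, Slfn1 at 0.477 ± 0.101 and Slfn4 at 0.322 ± 0.0507 FPKM. Here the ranges of Slfn5, Slfn8 and Slfn1 overlapped, and Slfn9, Slfn2 and Slfn4 each stood apart from their neighbours. The sum over the 6 genes was 50.2, 45.3 and 22.4 FPKM in treated 1, 2 and 3, against 11.9, 12.4 and 14.7 FPKM in control 1, 2 and 3.

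The makeup of that sum differed between the groups. Slfn4 supplied 18.3%, 10.4% and 9.29% of it in treated 1, 2 and 3, against 2.97%, 2.82% and 1.80% in control 1, 2 and 3, where it was the lowest member in each library. Slfn8 supplied 12.9 ± 2.52% in treated against 4.79 ± 0.346% in control tumours (SD, n = 3). Slfn9 supplied 26.4%, 34.0% and 50.7% in treated 1, 2 and 3, against 49.7%, 53.1% and 53.0% in control 1, 2 and 3, so treated 3 lay within the control range.

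The log2 ratio of one member's FPKM to another's was taken in each library. That of Slfn4 to Slfn9 was -2.45 to -0.53 in treated and -4.88 to -4.06 in control libraries, and that of Slfn8 to Slfn9 was -2.13 to -1.10 in treated and -3.59 to -3.34 in control libraries. That of Slfn1 to Slfn2, the short forms, overlapped, at -2.89 to -2.27 in treated and -3.35 to -2.74 in control libraries. With 3 against 3 libraries an exact permutation test cannot go below p = 0.1, so the ratios are given as ranges.

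**Figure D4:**
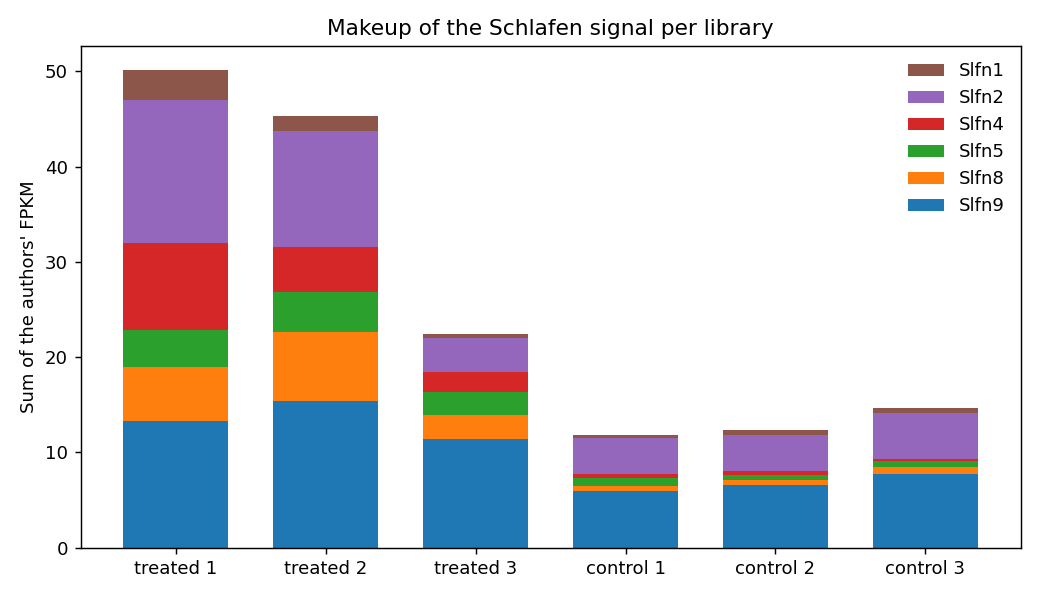
Sum of the authors' FPKM over the 6 Schlafen genes in each library, stacked by gene, with treated libraries left of controls. The sum is 50.2, 45.3 and 22.4 in treated 1, 2 and 3 and 11.9 to 14.7 in the controls, with Slfn4 supplying 9.29% or more in each treated library and 2.97% or less in each control.

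The other Schlafen genes of the cluster did not pass the threshold. Slfn3, which begins 1.11 kb past the end of Slfn4 and is 91.0% identical to it over 1783 aligned coding bases, was at 11.2, 13.1 and 10.4 CPM in treated 1, 2 and 3, against 9.61, 9.18 and 11.3 CPM in control 1, 2 and 3. The groups overlapped, and the log2 fold change was 0.21 ± 0.15 (edgeR adjusted p = 0.548). Slfn10-ps had 73, 82 and 41 counts in treated 1, 2 and 3, against 18, 13 and 18 counts in control 1, 2 and 3, without overlap; the log2 fold change was 1.91 ± 0.44 (edgeR adjusted p = 0.0914). DESeq2 called Slfn10-ps (adjusted p = 0.0356), as did limma-voom with sample weights (0.0415). Slfn14, a long form known for its role in platelets, had 0 to 4 counts per library, and Slfnl1, a relative on chromosome 4, had 0 to 9, both under the filter.

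Of 10 tested genes outside the family in and around the cluster, edgeR called 0, with 2 at an unadjusted p under 0.05 and 0 called by DESeq2. Beside Slfn5, Unc45b, a myosin chaperone gene, stood at 1.24 ± 0.52 on the log2 scale (edgeR adjusted p = 0.298), Nle1 at 0.08 ± 0.08 (0.694) and the recombination gene Rad51d at 0.15 ± 0.10 (0.524). Beside Slfn14, AA465934 had 0.48 ± 0.35 (edgeR adjusted p = 0.57) and Snord7 -0.37 ± 0.69 (0.846).

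Close copies in the family could share reads. The longest coding sequence in GENCODE M21 had 884 codons for Slfn5, 910 for both Slfn8 and Slfn9, 602 for Slfn4, 337 for Slfn1 and 378 for Slfn2. Slfn8 and Slfn9 were 92.7% identical over 2730 aligned coding bases, Slfn1 and Slfn2 68.6% over 1008, and Slfn5 and Slfn8 59.0% over 2607. Of all stretches as long as a read (150 bases) in the transcripts of a gene, 1.46% for Slfn9 and 2.51% for Slfn10-ps also occurred in another Schlafen gene, and 0% for the other members. At 50 bases this was 14.6% for Slfn8, 11.2% for Slfn9, 8.15% for Slfn4 and 0% for Slfn5. Slfn8 and Slfn9 had in common 9.30% of the 50-base stretches of Slfn8 and 6.52% of those of Slfn9, and 0 stretches of 150 bases. The split of reads between Slfn8 and Slfn9 thus carries some uncertainty where only part of a read is matched.

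Sums over near copies, an alternative chosen after seeing the data, do not depend on that split. Slfn8, Slfn9 and Slfn10-ps together were at 115.5 ± 26.3 CPM in treated against 48.5 ± 6.78 CPM in control tumours (SD, n = 3), with a fitted log2 difference of 1.25 ± 0.17 (edgeR adjusted p = 0.0138). Slfn3 and Slfn4 together were at 35.5 ± 16.3 CPM in treated against 11.5 ± 0.934 CPM in control tumours, with a fitted log2 difference of 1.63 ± 0.31 (edgeR adjusted p = 0.0489).

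Type I interferon is read by the receptor chains IFNAR1 and IFNAR2 with the kinases JAK1 and TYK2, and STAT2 and IRF9 carry the signal to the nucleus. Of 10 interferon signalling genes, 4 rose and none fell in edgeR's test, beside 1.36% of all tested genes higher and 0.249% lower. The median log2 fold change was 0.18 over the list and -0.0032 over all tested genes. Stat2 rose 3.64-fold (edgeR adjusted p = 0.000559), Irf9 2.97-fold (0.000668) and Irf7, which amplifies the response, 12.4-fold (0.00036). Ifnar1, Ifnar2, Jak1, Tyk2 and Irf3 had log2 fold changes from 0.10 (Jak1) to 0.19 (Irf3) that did not pass the threshold. Irf1 had -0.11 ± 0.41 (edgeR adjusted p = 0.931), positive without treated 3 (0.20) and without control 3 (0.29).

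Of the 35 interferon-stimulated comparators, which include Stat2, Irf7 and Irf9, 33 rose, beside 1.36% of all tested genes. The list was chosen with earlier results of these data known, so this count is a description only. Log2 fold changes over the list ran from 0.96 to 4.20, with a median of 2.92. Slfn4 at 4.04 and Slfn8 at 3.06 were above that median, and Slfn5 at 2.41 and Slfn9 at 0.99 below it, with no test made of a difference. Ddx58, the sensor gene with the smallest p of the list, had 3.01 ± 0.10 (edgeR adjusted p = 3.8e-05). Of 9 tested genes of transfer RNA cleavage and the stress kinases, edgeR called 0, with 3 at an unadjusted p under 0.05, 1 called by DESeq2 and 0 by limma-voom. Rnh1, the ribonuclease inhibitor gene with the smallest p of these, stood at 0.35 ± 0.10 on the log2 fold change scale (edgeR adjusted p = 0.136).

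The genes that followed each member most closely over the 6 libraries were found by Pearson's r of log2 CPM among 12503 genes with a mean log2 CPM of 1 or more. The values describe 6 points that share the division into treated and control, and high values arise easily among so many genes. For Slfn5 they were Mcf2l (r = 0.997), B3gnt3 (0.995) and the oncostatin M receptor gene Osmr (0.993). For Slfn8 they were the heat shock genes Hspa1a (0.998) and Dnajb1 (0.997), with 2810002D19Rik (0.997). Slfn9 had Paip2 (0.999), Nub1 (0.998) and the interferon-stimulated Parp14 (0.995). Slfn4 had Ece1 (0.999), Fbxl8 (0.997) and the endothelial adhesion gene Esam (0.995). Slfn1 had Tspan5 (0.998), Itm2b (0.995) and Hspe1 (0.991), and Slfn2 had Slc15a3 (0.997), Fblim1 (0.995) and Il1rn, the interleukin-1 receptor antagonist gene (0.992). Pearson's r takes no account of the size of a change. The log2 fold changes of all these partner genes ran from 0.18 (Itm2b) to 3.08 (Hspa1a).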

How the data were processed

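Polyadenylated RNA of 6 tumour libraries was selected with oligo(dT) and sequenced as pairs of 150 bases from strand-marking libraries, per the labels' protocols. The tools named are fastp, StringTie and edgeR, per the submitters' processing notes. Aligner, genome build and strand use in counting: not given in the sources used here. Reads of a gene and an overlapping antisense gene may therefore not have been told apart. The authors deposited raw counts and FPKM per gene in 1 table, per the file headers. FPKM was used only for levels between genes.

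Counts were tested in R 4.3.3 with edgeR 4.0.16: filterByExpr (minimum count 10, minimum total 15), TMM factors from 0.974 to 1.01, glmQLFit and glmQLFTest on the group, two-sided, Benjamini-Hochberg over 18049 genes, threshold 0.05. The SE is the log2 fold change over the square root of F. Depth of 57017043 to 66634551 counts leaves the spread between libraries as the main error for genes with many counts. Rows with few counts, such as Slfn10-ps at 13 to 18 per control library, also carry counting error. The fit was tested on simulated counts. Alternatives were DESeq2 1.42.0, limma 3.58.1 (voom, with and without sample weights), another scaling, no filter, a replicate block and leaving out each library. Alignments used MAFFT 7.526. Named genes are the members, other Schlafen rows, the signalling list, the 3 nearest tested genes on each side, the 3 genes most like each member by r, and the smallest-p gene of a list. Values of some genes under this rule are not reported here. The members and lists were chosen with earlier results of these data known.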

Additional observations from a re-analysis of the deposited data

How the results depend on the processing

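The number of members that rose was 4 with another scaling, without the filter and by limma-voom with sample weights, 5 by DESeq2 and 2 by limma-voom. Leaving out 1 library gave 1 to 6: Slfn5 alone without control 1 or control 2, Slfn8 and Slfn9 without control 3, and all 6 without treated 3. The numbers lower were 0 throughout. Every log2 fold change of the members stayed positive in the 12 settings, from 0.87 to 1.11 for Slfn9 and from 3.40 to 4.42 for Slfn4. Over all genes, 246 rose and 45 fell, against 701 and 297 by DESeq2, 601 and 191 by limma-voom with sample weights, 123 and 14 with the replicate block, and 10 fell without the filter; leaving out 1 library gave 94 to 308 and 3 to 39. Irf1 changed sign, to 0.20 without treated 3 and 0.29 without control 3, in a range of -0.41 to 0.29. With the replicate block 3 members rose and Slfn9 was lost (edgeR adjusted p = 0.0704). Same-numbered libraries did not deviate together (correlations 0.05, -0.25 and -0.18 for numbers 1, 2 and 3), and differently numbered ones had -0.10 to 0.28. With 3 libraries per group such correlations cannot exclude pairing, which the labels do not state. The cause of these changes was not tested. Slfn10-ps, at 13 to 18 counts per control library, had the fewest counts of the tested Schlafen genes.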
